A study of Drosophila melanogaster with 4 samples.

Results

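The brains of male flies kept for 6 days on medium with 250 µM NaAsO2 were compared with the brains of male flies kept on control medium, across the whole genome. Both groups were males of the laboratory strain Canton S (B), which the study's text gives as *w1118* Canton S (B), so both carried that allele of the eye colour gene *white*. For each group the brains of 10 flies were pooled into 1 single nucleus RNA sequencing library, in which a count is a unique molecular identifier (UMI) and stands for 1 captured transcript molecule. The 10000 nuclei of the NaAsO2 library were all deeper than many of the control library, where nuclei went down to 500 UMIs. Since it held exactly 10000 nuclei and none near that depth, its matrix may have been cut at a fixed number of nuclei, and shallower ones were not analysed here. To match depth, nuclei were kept in both libraries if they had at least as many UMIs as the shallowest NaAsO2 nucleus, which left 7817 of 14895 control nuclei and 10000 of 10000 NaAsO2 nuclei, 17817 of the 69415 nuclei of the 4 libraries of the series. Of 17772 genes, 7452 had at least 200 UMIs over both kept sets and were compared. The question was which transcripts of the male brain differ in abundance after chronic exposure to arsenite at this dose.

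Arsenite is the trivalent form of inorganic arsenic. It binds to thiol groups of proteins, is known to disturb mitochondrial enzymes and protein folding, and is known to induce metallothioneins, heat shock proteins and glutathione-dependent enzymes in many animals. The fly brain consists mainly of neurons, which share the RNA-binding protein gene *elav*, and of glia, which share the homeobox gene *repo*. Glia ensheath neuropil and nerve cell bodies and form the blood-brain barrier, and head fat body, blood cells and retinal cells can remain attached to a dissected brain. Nuclei hold newly made transcripts with introns, so counts from nuclei weigh long genes more than counts from whole cells do.

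The kept control nuclei held 24926977 UMIs with a median of 2586 per nucleus, and the kept NaAsO2 nuclei held 34292066 with a median of 2666. UMIs of a gene were summed over nuclei, divided by all UMIs of those nuclei and given as counts per 1000000 UMIs (CPM). The log2 ratio is that of the CPM in the NaAsO2 library to the CPM in the control library. Intervals are 95% intervals, exact Poisson for CPM, exact conditional binomial for log2 ratios and exact binomial for shares, and they cover counting error only. With 1 library a side, neither the spread between flies nor that between libraries is known, so no p-value is given, "higher" and "lower" refer to these libraries, and a gene is counted where they stand at least 2-fold apart. In sums over a brain, fewer nuclei of a type and less RNA per nucleus cannot be told apart. The libraries shared 45 cell barcodes, 23 of them among kept nuclei.

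*elav* was seen in 61.6% of control nuclei (60.5% to 62.7%) and 68.9% of NaAsO2 nuclei (68.0% to 69.8%) after every kept nucleus was thinned to the UMI total of the shallowest. The shares of *repo*, 3.03% (2.66% to 3.44%) and 3.24% (2.90% to 3.61%), overlapped within their intervals. Without thinning, *elav* stood at 76.2% and 83.1% and *repo* at 4.53% and 5.65%. Nuclei were split by these genes into *elav* nuclei (*elav* without *repo*, 5693 in the control and 7847 in the NaAsO2 library), *repo* nuclei (*repo* without *elav*, 94 and 104), nuclei with both (260 and 461) and nuclei with neither (1770 and 1588). The split separated neurons from glia only in part. The nuclei with neither carried 7 neuronal markers other than *elav* at a summed 13452 CPM in the control, close to the 14486 CPM of the *elav* nuclei, and *elav* was also seen in 73.4% of control nuclei with *repo*. The *repo* nuclei had 1518 CPM of 3 glial markers other than *repo*, against 208 CPM in the *elav* nuclei, and 6588 CPM of the neuronal markers.

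More genes were lower than higher after NaAsO2. Over all kept nuclei, 53 genes (0.711% of 7452) were at least 2-fold higher and 412 (5.53%) were at least 2-fold lower. The median log2 ratio was -0.18, with quartiles at -0.50 and 0.08, and 66.8% of genes were below 0. When ratios were centred on this median gene, 92 genes (1.23%) were at least 2-fold higher and 245 (3.29%) at least 2-fold lower, so lower genes made up 72.7% of those counted in place of 88.6%. Of the 412 lower genes, 408 code for proteins, and their median length with introns was 1692 bases against 3446 bases over all genes compared. The 53 higher genes held 37 protein-coding genes, and the rest were ribosomal RNA precursors, mitochondrial RNAs, small nucleolar RNAs, a small noncoding RNA and long noncoding or antisense RNAs.

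**Figure D1:**
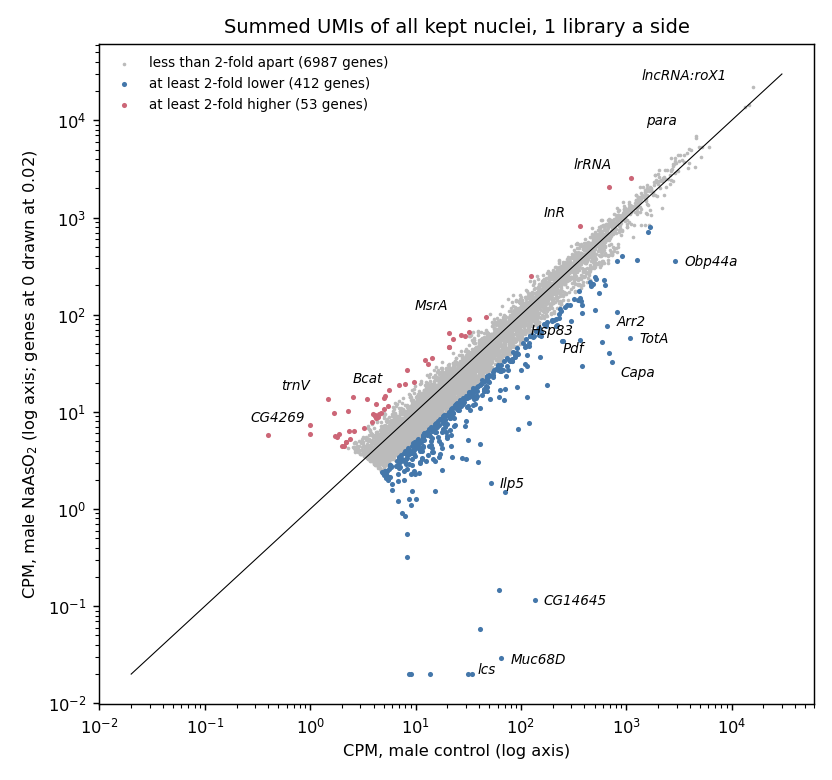
CPM in the male control library (horizontal) against CPM in the male NaAsO2 library (vertical), each a sum over all kept nuclei of 1 library, for the 7452 genes compared, with both axes logarithmic and the line at equal CPM. The 412 lower genes spread far from the line, down to genes with no UMI in the NaAsO2 library, which are drawn in the lowest row, and the 53 higher genes lie closer to it.

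The genes with the lowest log2 ratios were nearly absent from the NaAsO2 library and, in the control library, rested on very few nuclei. *Muc68D*, which codes for a mucin, had 1625 UMIs in the control and 1 in the NaAsO2 library. *CG14645* had 3382 and 4, *whe* 1027 and 2, and *CG34324* 1545 and 5. Another 5 of the 10 lowest, *CG16826*, *lcs*, *Obp99b*, *CG14125* and *CG3906*, had 856, 790, 339, 224 and 216 UMIs in the control and 0 in the NaAsO2 library. With the count of 0 set to a floor of 3 UMIs, *CG16826* was 392-fold lower and *lcs* 362-fold lower. The upper limits of their log2 ratios, from the count of 0 itself, were -8.315 and -8.199.

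A single control nucleus held 63.0% of the *Muc68D* UMIs, 67.8% of the *CG14645* UMIs, 68.4% of the *whe* UMIs and 86.4% of the *CG16826* UMIs. Leaving out the nucleus with most UMIs of each gene in each library, an alternative chosen after the data were seen, left log2 ratios of -8.11 for *Muc68D*, -8.96 for *CG14645*, -8.80 for *whe* and -5.73 for *CG16826*. The number of nuclei with any UMI also differed: *CG14645* was seen in 343 control nuclei and 4 NaAsO2 nuclei, *whe* in 236 and 2, *lcs* in 138 and 0. The 10th of these genes, *CG34220*, was at 70.4 and 1.49 CPM and had 56.8% of its control UMIs in 1 nucleus. In the clustering described further on, *CG16826*, *lcs* and *whe* were leading genes of the same cluster, of 130 control and 332 NaAsO2 nuclei. *CG14645*, *Muc68D*, *CG34220*, *CG34324*, *CG3906* and *CG14125*, together with *Capa*, were leading genes of another, of 4 control and 145 NaAsO2 nuclei. Ratios of genes that led the same cluster are not separate results. What these few nuclei are was not tested.

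Peptide hormone and neuropeptide genes formed another group with low ratios. Neuropeptides are made at very high levels by small sets of neurosecretory cells and act on receptors spread over the brain. Of the 43 genes listed, 33 passed the minimum, and 18 of these were at least 2-fold lower and none higher. Their median log2 ratio was -1.14 beside -0.18 over all genes, of which 5.53% were at least 2-fold lower. The list did not include the peptide hormone gene *Lst*, which was higher, with 25 and 203 UMIs. A gene that reaches the minimum mostly through 1 library is bound to differ, so the counts for this and the other gene lists are descriptions of those that passed. *Ilp5*, an insulin-like peptide of the insulin-producing cells, stood at 52.0 CPM in the control and 1.87 CPM in the NaAsO2 library (log2 ratio -4.80, -5.18 to -4.44). *Capa*, whose product is cut into several diuretic and pyrokinin peptides, was at 725 CPM and 32.3 CPM. *NPF*, the fly relative of neuropeptide Y, was at 384 CPM and 29.9 CPM (log2 ratio -3.69). For *Pdf* (chromosome 3R, 26455462 to 26456141), the output peptide of clock neurons, the levels were 594 CPM (584 to 604) and 52.2 CPM (49.8 to 54.7), a log2 ratio of -3.51. All of these differences exceeded counting error by far.

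The lower peptide signal came from strongly labelled nuclei. *Pdf* had at least 100 UMIs in 23 control nuclei and in 1 NaAsO2 nucleus, and its highest nucleus held 2390 and 199 UMIs. Nuclei with 1 to 4 UMIs of *Pdf*, by contrast, gave 45.9 CPM in the control and 40.0 CPM in the NaAsO2 library, and 991 and 1072 nuclei held at least 1. For *NPF*, 13 control nuclei and 1 NaAsO2 nucleus had at least 100 UMIs, and nuclei with 1 to 4 UMIs gave 17.3 and 17.2 CPM. A different picture held for *Capa*, in which 1 control nucleus alone carried 45.6% of the UMIs and nuclei with 1 to 4 UMIs gave 33.4 and 11.6 CPM. Without the clusters of 1 library described further on, the log2 ratio of *Capa* was -2.51 in place of -4.49. This also left out 4 control nuclei, in a cluster that had *Capa* among its leading genes. *Ilp2*, another insulin-like peptide, was at 384 and 104 CPM (log2 ratio -1.88), but the share of thinned nuclei with *Ilp2* was higher in the NaAsO2 library, at 5.42% against 3.51%, and 1 NaAsO2 nucleus held 45.0% of the UMIs there. A single UMI of a peptide gene in a nucleus can be free RNA in the droplets, and its part was not tested.

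Receptors for these peptides did not share this pattern. Of 37 receptor genes 34 passed the minimum, 2 were at least 2-fold higher and none lower, and the median of the 34 was 0.04. Over all genes 0.711% were at least 2-fold higher and 5.53% lower. The insulin receptor gene *InR* (chromosome 3R, 21570248 to 21619321), which is also the receptor of the insulin-like peptides above, stood at 365 CPM (357 to 373) and 809 CPM (799 to 818). Its log2 ratio was 1.15 (1.11 to 1.18), and no nucleus held more than 0.59% of its UMIs in either library. *InR* was found in 43.8% of thinned control nuclei and 67.3% of thinned NaAsO2 nuclei. *AstA-R2*, a receptor of allatostatin A, was also 2-fold higher but rested on 50 and 153 UMIs. In the list of 17 insulin signalling genes, *Ilp5*, *ImpL2*, *Ilp2* and *Ilp6* were at least 2-fold lower, *InR* was higher, and the median was 0.11. *ImpL2*, which codes for a secreted protein that binds insulin-like peptides, was at 51.1 CPM and 13.5 CPM.

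Other lower genes are known from fat body, blood cells and photoreceptors. Turandot genes code for secreted stress peptides made largely by the fat body, and all 4 of the 8 listed that passed were at least 2-fold lower, beside 5.53% of all genes. *TotA* (chromosome 3R, 20871036 to 20871700) was at 1092 CPM and 57.9 CPM and *TotC* at 678 CPM and 40.1 CPM. For *TotX* the values were 93.5 and 6.68 CPM. *TotM* stood at 48.1 and 23.3 CPM, a log2 ratio of -1.04, which turned to 0.05 when every nucleus had the same weight and to 0.22 without likely doublets. These genes are close relatives, and reads that several of them share could have been counted for either or left out.

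Of 40 antimicrobial and Bomanin peptide genes 10 passed, and 9 were at least 2-fold lower, beside 5.53% of all genes, with a median of -1.62. *BomBc2* stood at 39.1 and 3.03 CPM and *BomBc3* at 15.2 and 3.15 CPM. *Dso2* was at 9.07 and 2.28 CPM and *Dso1* at 23.6 and 7.26 CPM. Genes of lipid transport and storage were lower as well. *apolpp*, the precursor of the main lipoprotein of the blood, was at 1272 and 363 CPM (log2 ratio -1.81, -1.84 to -1.78), and *Lsd-1*, a lipid droplet protein gene, had 206 and 19 UMIs. In the control, *apolpp* was at 6071 CPM in *repo* nuclei and 786 CPM in *elav* nuclei, and 321 nuclei held at least 20 UMIs. Its values are thus not those of fat body alone. *Tsf1*, which codes for the iron carrier transferrin, was at 371 and 137 CPM.

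Of 26 phototransduction genes 22 passed, 11 were at least 2-fold lower and 1 was higher, with a median of -1.26. Over all genes 5.53% were at least 2-fold lower and 0.711% higher. The arrestin gene *Arr2* was at 661 and 75.8 CPM (log2 ratio -3.12, -3.18 to -3.06), and *Arr1* was at 176 and 19 CPM. The channel gene *trp* was at 41.3 and 4.67 CPM, and *Gbeta76C*, a G protein subunit gene of the retina, at 30.1 and 3.27 CPM. The higher gene was the opsin gene *ninaE*, singled out after its values were seen, at 5.05 and 13.9 CPM. *norpA*, a phospholipase gene, was at 795 and 690 CPM. The opsin gene *Rh2*, also picked after its values were seen, was at 814 and 107 CPM. The study reported its decrease in males particularly in retinula cells of the ocellus, so the photoreceptors here need not be those of the retina.

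The marker lists of these tissues hold some of the genes just described, so they are not separate evidence. *apolpp* is on the fat body list, with 1272 CPM in the control, and *Arr1*, *Arr2*, *trp*, *ninaE* and *norpA* are on the photoreceptor list. In the clustering described further on, a cluster led by *TotA* and *TotC* held 75 control and 104 NaAsO2 nuclei. One led by the plasmatocyte marker *Hml* held 91 and 63, and one led by *Rh2* and *Arr2* held 76 and 52. These clusters were made from the same counts, and the part of nuclei numbers in the values was not tested. The fat body list of 10 genes summed to 2540 CPM in the control and 849 CPM in the NaAsO2 library, the plasmatocyte list of 7 genes to 252 and 114 CPM, and the photoreceptor list of 9 genes to 2665 and 933 CPM. All 5 fat body markers, all 6 plasmatocyte markers and 8 of the 9 photoreceptor markers that passed the minimum were below 0. The sum of the fat body list was lower in every class of nuclei, at 1237 and 718 CPM in *elav* nuclei, 8890 and 2282 CPM in *repo* nuclei and 4670 and 1460 CPM in nuclei with neither. In *elav* nuclei its members did not all follow. There *apolpp* was at 786 and 285 CPM, and *CG2233*, *Obp99c*, *Cyt-b5-r* and *fit* were lower. *Nplp2* was at 285 and 316 CPM, and the weakly expressed *Fbp1*, *Yp1*, *Yp2* and *Yp3* were higher. In the *repo* nuclei the photoreceptor list did not follow, at 1193 and 1321 CPM. Muscle, tracheal and cuticle lists summed to at most 27.6 CPM in either library.

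**Figure D2:**
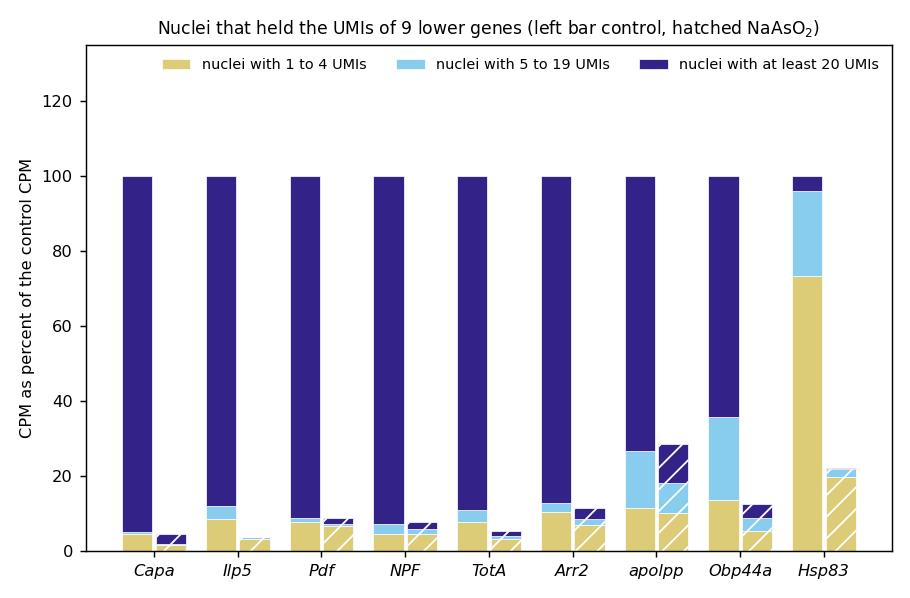
CPM of 9 lower genes as a percent of their control CPM, with the left bar of each pair for the control library and the hatched right bar for the NaAsO2 library, divided by how many UMIs of the gene the nuclei held. For *Pdf*, *NPF*, *TotA* and *Arr2* most of the difference lay in nuclei with at least 20 UMIs, whereas for *Hsp83* most of it lay in nuclei with 1 to 4 UMIs.

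The few nuclei with most UMIs again carried much of the signal of several genes known from fat body and photoreceptors. One control nucleus held 32.0% of the *TotA* UMIs, 31.1% of the *TotC* UMIs, 29.8% of the *Arr2* UMIs and 12.4% of the *apolpp* UMIs. Without the nucleus with most UMIs, the log2 ratios were -3.79 for *TotA*, -2.65 for *Arr2* and -1.64 for *apolpp*. *TotA* had at least 100 UMIs in 18 control nuclei and in 1 NaAsO2 nucleus. Over all 412 lower genes, the median share of control UMIs in 1 nucleus was 1.89%, and it was above 10% for 115 genes and below 5% for 264. The share of thinned nuclei with the gene was also at least 2-fold lower for 232 of the 412.

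*Obp44a* (chromosome 2R, 8134170 to 8135315), which codes for an odorant binding protein, had the largest loss of CPM of all genes, from 2901 (2880 to 2922) to 360 (354 to 366). Its log2 ratio was -3.01 (-3.04 to -2.98), and 80.5% of thinned control nuclei but 27.8% of thinned NaAsO2 nuclei held at least 1 UMI. *Obp44a* was at 11297 and 680 CPM in *repo* nuclei, 2477 and 278 CPM in *elav* nuclei and 2823 and 357 CPM in nuclei with neither. The 655 control nuclei with at least 20 UMIs held 64.3% of its control UMIs, nuclei with 1 to 4 gave 397 and 155 CPM, and the part of free RNA in the shares was not tested. *Hsp83* (chromosome 3L, 3192969 to 3197059), the fly gene for the chaperone Hsp90, was at 507 CPM (498 to 516) and 112 CPM (108 to 115). At least 1 UMI of *Hsp83* was seen in 56.1% and 16.4% of thinned nuclei, and no nucleus held more than 0.57% of its UMIs. The other large losses of CPM were those of *TotA* and *apolpp*, of the noncoding RNA *lncRNA:mimi*, at 4503 and 3276 CPM, and of the dopamine receptor gene *Dop2R*, at 2172 and 1259 CPM.

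Heat shock genes other than *Hsp83* pointed the same way. The list of 23 heat shock and co-chaperone genes had 11 that passed, all of them below 0, with 3 at least 2-fold lower, none higher and a median of -0.76. Over all genes 66.8% were below 0 and 5.53% at least 2-fold lower. The part of gene length in this list was not tested. The small heat shock protein genes *Hsp23* and *Hsp67Ba* were at 16.8 and 3.41 CPM and at 30.0 and 8.11 CPM. *Hsp23* was seen in 323 control nuclei and 110 NaAsO2 nuclei.

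Most genes of energy metabolism and protein turnover were below 0. Over all genes 66.8% were below 0 and 5.53% at least 2-fold lower, and among 137 genes in the shortest of 5 length classes and the highest of 4 CPM classes the median was -0.72 with 24.8% lower. That class holds genes of these lists, such as *ATPsynB*, *COX8* and the ribosomal protein gene *RpL30*, so it is not a separate background. Of 87 nuclear genes for respiratory chain subunits 61 passed, 60 of them were below 0, 16 were at least 2-fold lower, and the median was -0.86. *ATPsynB*, a subunit gene of ATP synthase, was at 382 and 126 CPM (log2 ratio -1.60), *COX8* at 352 and 140 CPM, and the complex I genes *ND-B15* and *ND-B14.7* at 87.6 and 36.3 CPM and at 92.6 and 40.1 CPM. All 14 glycolytic genes passed, 13 were below 0, and the median was -0.85. *Tpi*, *Gapdh1* and *Gapdh2* were 2-fold lower, each by a log2 ratio between -1.04 and -1.0. Centred on the median gene, none of the 14 was 2-fold lower, and the respiratory chain count was 9 in place of 16. All 31 proteasome genes that passed were below 0, with a median of -0.74 and with *Prosbeta5*, *Rpn1* and *Prosalpha5* at least 2-fold lower, of which 1 remained after centring.

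Genes of cytosolic ribosomal proteins took 37651 CPM in the control and 24486 CPM in the NaAsO2 library. Of the 93, 84 passed and 83 of these were below 0, with a median of -0.64, and *RpLP2* (500 and 242 CPM) and *RpL30* (148 and 73.8 CPM) were 2-fold lower, though not after centring. Many ribosomal protein genes have near-identical copies, among which reads cannot be placed with certainty. Transcripts of the mitochondrial genome went the other way. Of 37 listed, 6 passed, all were above 0, and 4 were at least 2-fold higher, beside 0.711% of all genes. The large ribosomal RNA gene *lrRNA* was at 1109 and 2567 CPM (log2 ratio 1.21, 1.19 to 1.23), *trnA* at 6.90 and 18.8 CPM, *trnK* at 1.89 and 5.89 CPM and *trnV* at 1.48 and 13.5 CPM. Mitochondrial RNA made up 0.118% of control UMIs and 0.272% of NaAsO2 UMIs. It is made outside the nucleus, and how much of it came with the nuclei or as free RNA was not tested.

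The genes with the highest log2 ratios were weakly expressed and were seen in scattered nuclei. *CG4269* had 10 UMIs in the control and 199 in the NaAsO2 library (log2 ratio 3.85, 2.94 to 4.94), in 10 and 193 nuclei. *Unc-115b*, the gene of an actin-binding protein, had 25 and 252 UMIs, and *Lst*, which codes for the peptide hormone limostatin, 25 and 203. *pre-rRNA:CR45845*, a ribosomal RNA precursor with several copies in the genome, had 42 and 331 UMIs, and *lncRNA:CR45522* had 57 and 347. *CG9689* stood at 3.49 and 13.4 CPM.

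Several genes with high ratios code for enzymes of amino acid metabolism. *Bcat*, the branched-chain amino acid transaminase gene, was at 2.53 CPM (1.94 to 3.23) and 14.1 CPM (12.9 to 15.4), in 55 and 331 nuclei. *b*, which codes for the aspartate decarboxylase that makes beta-alanine, was at 1.72 and 5.69 CPM. *Gnmt*, glycine N-methyltransferase, was at 5.09 and 14.7 CPM in all nuclei, and its log2 ratio was 2.04 without its highest nucleus, which held 33.9% of its control UMIs. *aay*, phosphoserine phosphatase, was at 12.2 and 33.8 CPM, in 277 and 832 nuclei. They were put together after their values were seen, and no list of amino acid enzymes was counted. *CG17724* was at 22.8 and 56.0 CPM and *CG43693* at 20.7 and 64.0 CPM, with log2 ratios of 1.54 and 1.93 in nuclei with neither *elav* nor *repo*.

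*lncRNA:CR40469*, an X-linked noncoding RNA of 214 bases, was at 683 and 2061 CPM, in 4350 and 8406 nuclei. Its log2 ratio was 1.59 (1.57 to 1.62), and the highest nucleus held 7.21% of the NaAsO2 UMIs. The 5 largest gains of CPM were those of *lncRNA:roX1*, *para*, *Sh*, *lrRNA* and *pan*, and only *lrRNA* among them was 2-fold higher. *lncRNA:roX1* (chromosome X, 3857230 to 3862697), the RNA that coats the male X chromosome in dosage compensation, was at 15974 and 22102 CPM, 1.60% and 2.21% of all UMIs. The partner RNA *lncRNA:roX2* did not share this, at 3875 and 3200 CPM. *para*, the gene of the voltage-gated sodium channel, was at 4630 CPM (4603 to 4657) and 6881 CPM (6854 to 6909), the potassium channel gene *Sh* at 4627 and 6584 CPM, and *pan*, a transcription factor gene of the Wnt pathway, at 2676 and 4104 CPM. All 3 were present in nearly every nucleus.

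The log2 ratio varied with the length of the gene. With the genes divided into 10 length classes of about equal size, median log2 ratios went from -0.48 in the shortest class (74 to 1058 bases with introns) to 0.10 in the longest (25831 to 1965857 bases), and each class stood above the one before. In the shortest class 14.2% of genes were at least 2-fold lower, and in the longest 0.134%. Spearman's rho over 7444 genes was 0.42 in all kept nuclei, 0.44 in *elav* nuclei and 0.44 in nuclei with neither, and it was 0.28 over 625 genes in *repo* nuclei, values across genes that share 2 libraries and are not independent. Genes were also divided into 4 classes by mean CPM and 5 by length. In the class with the highest CPM the shortest genes had a median of -0.72 and the longest 0.09, and in the class with the lowest CPM the medians were -0.32 and 0.07.

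**Figure D3:**
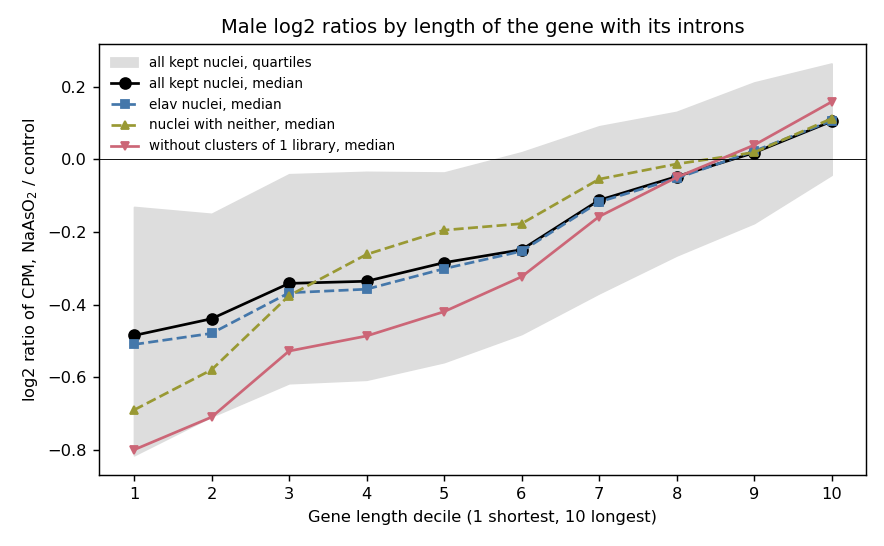
Median log2 ratio of CPM, NaAsO2 over control, in 10 classes of genes by length with introns, for all kept nuclei with the quartiles as a band, for *elav* nuclei, for nuclei with neither *elav* nor *repo*, and without the clusters made of 1 library. All 4 lines run upward from the shortest to the longest genes, and the line without those clusters starts lowest, at -0.80.

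Chromosomes of the nucleus differed as well. The median was -0.21 on the large autosomes, -0.10 on the X chromosome (1291 genes) and 0.13 on chromosome 4 (85 genes). Within the longest of 5 length classes it was 0.15 on the X and 0.05 on the large autosomes, and within the shortest -0.36 and -0.47. The 176 long noncoding RNA genes annotated as such had a median of 0.18, the 56 antisense RNAs 0.15 and 8 small nucleolar RNAs 0.69. The counting is not known to have used strand, so an antisense RNA and the gene it overlaps may share UMIs.

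Of the metal, redox and detoxification lists, all but the metallothioneins had medians below 0, as had all genes tested, with a median of -0.18. Metallothioneins bind metal ions through their cysteines, and 3 of 6 passed. *MtnA* was at 701 CPM (691 to 712) and 896 CPM (886 to 906), a log2 ratio of 0.35, and *MtnF* was at 39.0 and 20.4 CPM. The *MtnA* difference lay in a minority of nuclei: 593 control nuclei and 1496 NaAsO2 nuclei held at least 5 UMIs, while nuclei with 1 to 4 UMIs gave 379 and 252 CPM and the share of thinned nuclei with *MtnA* was 59.7% and 52.5%. Its log2 ratio was -0.10 without clusters of 1 library. Of 28 metal transport and storage genes 19 passed, and only *Tsf1* was 2-fold apart.

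Superoxide dismutases convert superoxide to peroxide, and the cytosolic gene *Sod1* was at 139 and 67.9 CPM and the mitochondrial gene *Sod2* at 66.5 and 27.0 CPM. *MsrA* (chromosome 3L, 15511052 to 15513202), which codes for the enzyme that repairs oxidized methionine, stood at 32.2 CPM (30.1 to 34.6) and 90.2 CPM (87.0 to 93.4). Its log2 ratio of 1.48 (1.37 to 1.60) was the only one above 1 among the 14 of 19 antioxidant genes that passed, and 3 were below -1, the third being *Prx6a* at 5.82 and 2.71 CPM. The median of the list was -0.53, and after centring only *Sod2* was below -1. The Nrf2 pathway and glutathione synthesis list had 8 of 12 pass, none 2-fold apart, and a median of -0.41, with the transcription factor gene *cnc* at 253 and 229 CPM and *Gclc*, of the first step of glutathione synthesis, at 102 and 125 CPM.

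Of 35 glutathione S-transferase genes 16 passed, with a median of -0.29 and with *GstE6*, at 18.6 and 9.24 CPM, as the only one 2-fold apart, though not after centring. The UDP-glycosyltransferase genes *Ugt35C1* (17.3 and 4.64 CPM) and *Ugt35B1* (93.9 and 39.8 CPM) were lower, among 9 of 35 that passed, with a median of -0.65. Of 87 cytochrome P450 genes 27 passed, with a median of -0.06. *Cyp4ac3* was higher, at 8.38 and 26.7 CPM, and *Cyp305a1*, *Cyp6w1* and *Cyp6a20* were lower, at 6.78 and 2.28 CPM, 11.9 and 4.34 CPM and 9.75 and 4.29 CPM. Among 15 genes of the unfolded protein and integrated stress response the median was -0.30, and *Gp93*, an endoplasmic reticulum chaperone gene, and *Xbp1*, a transcription factor gene of that response, were at 47.9 and 23.0 CPM and at 122 and 61.7 CPM. The JNK pathway list had a median of 0.00 over 12 genes, with the ligand gene *egr* at 16.3 and 8.02 CPM.

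Most receptor and channel genes of neuronal signalling lay above the median gene, at -0.18, and less than 2-fold apart. The upper quartile of all genes was 0.08. Receptor and channel lists had medians of 0.25 (10 nicotinic acetylcholine receptor subunits), 0.12 (16 glutamate and GABA receptors), 0.17 (35 ion channels) and -0.03 (16 monoamine receptors). Beside these, the 988 genes in the longest of 5 length classes and the highest of 4 CPM classes had a median of 0.09. *Rdl*, the GABA receptor subunit gene, was at 3946 and 5026 CPM and *GluClalpha*, a glutamate-gated chloride channel gene, at 1900 and 2307 CPM. Those at least 2-fold apart were *nAChRbeta3* at 11 and 4.0 CPM, the leak potassium channel gene *Ork1* at 74.4 and 29.4 CPM and *Irk1* at 10.6 and 5.25 CPM. Of 27 vesicle release genes only *Rop*, the fly gene for Munc18, was 2-fold apart, at 140 and 68.0 CPM. The 52 adhesion genes of the Dpr, DIP, Beat and Side families all lay between -0.39 and 0.23.

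In the list for transmitter synthesis, loading and uptake, 3 of 21 genes were at least 2-fold lower, beside 5.53% of all genes. *ple*, the tyrosine hydroxylase gene of dopamine synthesis, was at 46.0 and 16.7 CPM, *Trhn*, the tryptophan hydroxylase gene of serotonin synthesis, at 10.5 and 4.23 CPM, and the retinal transporter gene *CarT* at 7.82 and 2.01 CPM. Of nuclear receptor and ecdysone response genes none was 2-fold apart, 16 of 19 were above 0 beside 33.2% of all genes, and the median was 0.32, *Eip75B* at 858 and 1186 CPM among them. *Eip75B* spans 113744 bases, and the longest genes with the highest CPM had a median of 0.09. The part of gene length in this list was not tested. The clock genes other than *Pdf* all lay within 2-fold. *Sxl*, the master gene of sex determination, and *fru* were at 594 and 942 CPM and at 951 and 1311 CPM. Blood-brain barrier and septate junction genes had a median of -0.12 with none 2-fold apart, and *Mdr65*, a transporter gene of subperineurial glia, was at 55.3 and 27.8 CPM.

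The remaining lists are given beside the 5.53% of all genes that were at least 2-fold lower and the 0.711% that were at least 2-fold higher. Odorant binding protein genes had a median of -1.24, but only 6 of 51 passed, 3 of them lower. Of 24 lipoprotein and lipid metabolism genes 22 passed and 6 were lower, with a median of -0.39. Among 225 of 2385 long noncoding RNAs that passed, 7 were higher and 3 lower, with a median of 0.13. Dosage compensation (8 genes), Notch pathway (10), cAMP memory pathway (15) and sex determination (7) lists had none 2-fold apart, with medians of -0.30, -0.08, 0.03 and 0.35.

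**Figure D4:**
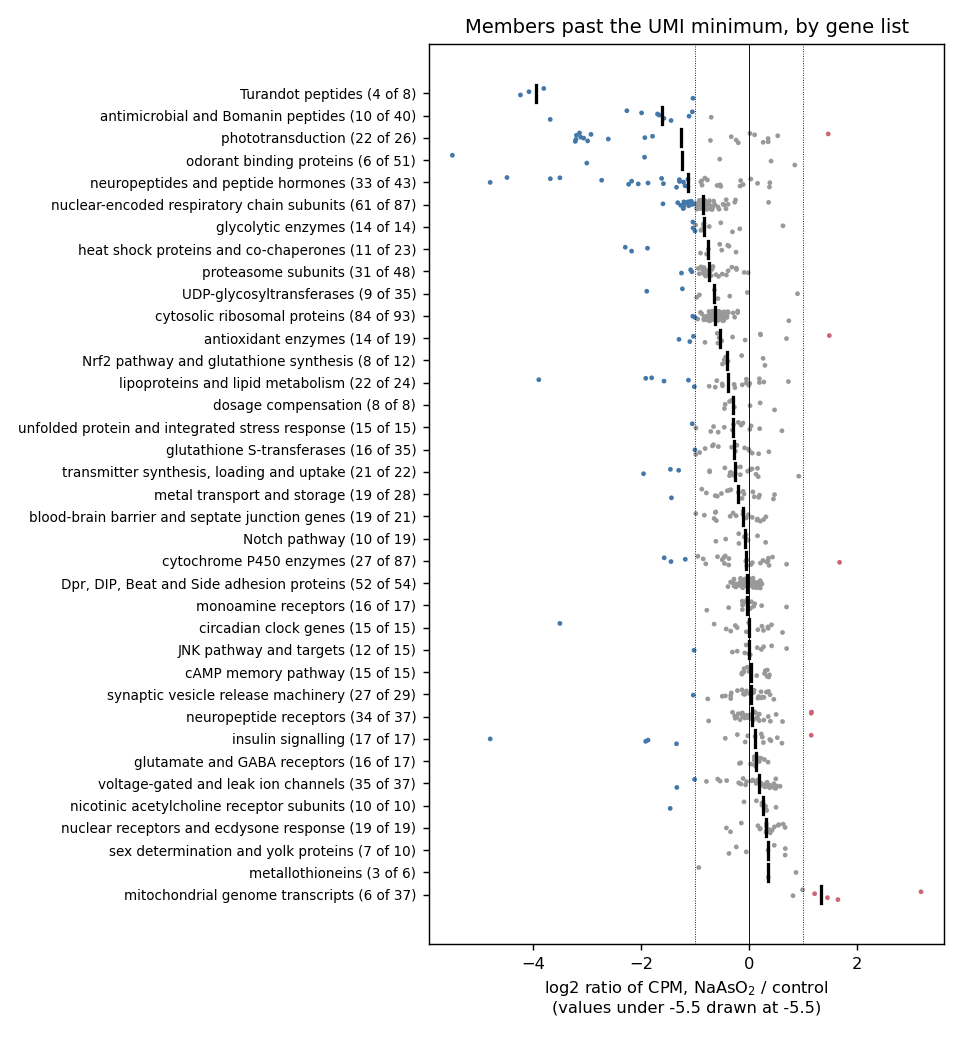
Log2 ratios of CPM, NaAsO2 over control, of the genes past the UMI minimum (points, with values under -5.5 drawn at -5.5, blue where at least 2-fold lower and red where at least 2-fold higher) in 37 gene lists, with the number past the minimum and the number listed in brackets, the list's median as a bar, and dotted lines at 2-fold. Turandot, antimicrobial, phototransduction and peptide lists lie far to the left, and mitochondrial genome transcripts to the right.

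In *elav* nuclei 6928 genes were compared, and 49 (0.707%) were at least 2-fold higher and 350 (5.05%) at least 2-fold lower. The values resembled those of all nuclei, of which they are the larger part. The lowest were *whe*, *Muc68D*, *CG16826*, *CG14645* and *lcs*, and the highest *trnV*, *Unc-115b*, *Gnmt*, *pre-rRNA:CR45845* and *Bcat*. *Gnmt* was at 2.17 and 12.7 CPM there, a log2 ratio of 2.55, above the 1.53 of all nuclei. In nuclei with neither gene, 15 of 3725 genes (0.403%) were higher and 163 (4.38%) lower. *Capa* had the largest number of UMIs among the lowest, 9266 and 63, with 88.9% of the former in 1 nucleus. *MsrA* was at 31.5 and 113 CPM, *aay* at 12.3 and 40.5 CPM and *lrRNA* at 874 and 2928 CPM. Across 3724 genes measured in both classes, Spearman's rho between the log2 ratios of *elav* nuclei and of nuclei with neither was 0.90. Both classes come from the same 2 libraries.

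Only 626 genes reached 200 UMIs in the 94 and 104 *repo* nuclei, of which 13 (2.08%) were at least 2-fold higher and 33 (5.27%) lower, and the median was 0.02. *Obp44a* was lower in a way that 1 nucleus did not set, at 2821 and 208 UMIs in 92 and 65 *repo* nuclei. *Ilp2*, *TotC*, *TotA* and *CG2233* were the other 4 lowest, and 1 control nucleus held 98.2%, 67.8%, 70.7% and 56.2% of their UMIs. The highest was *CG12239*, at 36.0 and 788 CPM, in 7 and 58 nuclei. Over all kept nuclei its CPM was lower, at 587 and 410, but it was seen in 743 control and 3573 NaAsO2 nuclei. There, 56 control nuclei with at least 20 UMIs held 92.4% of its control UMIs. Nuclei with 1 to 4 UMIs gave 31.6 and 131 CPM. *lrRNA* was at 841 and 3756 CPM, and the neuronal genes *FoxP* and *nwk* were at 200 and 654 CPM and at 284 and 794 CPM. The summed neuronal markers were at 6588 and 9173 CPM in these nuclei, the glial markers other than *repo* at 1518 and 680 CPM, and the part of either in these values was not tested. The glial marker *nrv2* was at 741 and 320 CPM, and *Mdr65* at 697 and 216 CPM.

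Clustering of the kept nuclei gave 23 clusters, 2 of which had at least 90% of their nuclei from 1 library after scaling for library size. These held 1064 NaAsO2 nuclei and 6 control nuclei, and whether they are a cell type or a property of that library cannot be told apart. Without them, 824 genes were at least 2-fold lower and 36 higher, and the median log2 ratio was -0.27. Of *repo* nuclei, 94 control and 70 NaAsO2 nuclei were then left, in place of 94 and 104. There, 12 of 507 genes were at least 2-fold higher and 39 lower. Of the 412 lower genes over all kept nuclei, 390 were among the 824, and of the 53 higher genes, 35 were among the 36. Of the 93 named genes at least 2-fold apart, 59 lay further from 0 without these nuclei and 34 nearer. Lists further from 0 had medians of -1.20 for respiratory chain subunits, of which 49 of 61 were at least 2-fold lower, -0.99 for proteasome genes, -0.93 for ribosomal proteins and -0.95 for heat shock genes, and mitochondrial genome transcripts lay nearer, at 1.17 in place of 1.33. The log2 ratios of named genes that moved by over 1.5-fold were those of *Muc68D* (-9.51), *CG14645* (-8.36), *CG34324* (-7.68), *CG34220* (-4.22), *Capa* (-2.51), *CG4269* (3.22), *Pdf* (-4.17), *COX8* (-1.92) and *CG12239* (-1.24), besides *CG14125* and *CG3906*, which have no UMI in the NaAsO2 library. Of these, *Capa*, *CG14645*, *Muc68D*, *CG34220*, *CG34324*, *CG3906* and *CG14125* were leading genes of the removed cluster of 4 control and 145 NaAsO2 nuclei. UMIs of these genes in its control nuclei were thus left out too. *CG12239* was a leading gene of the other removed cluster, of 2 control and 919 NaAsO2 nuclei. *Hsp83* was at a log2 ratio of -2.25, *Obp44a* at -3.31, *InR* at 1.20 and *MsrA* at 1.26.

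The same minimum of UMIs per nucleus in the female libraries kept 12761 and 8387 nuclei and left 7690 genes, with which male values can be set side by side, since the sexes share no control. In females 137 genes (1.78%) were at least 2-fold higher and 14 (0.182%) lower, with a median of 0.08. Across 7357 genes Spearman's rho between the sexes was -0.31, and the rho of the female log2 ratio with gene length was -0.33. Of the 412 genes lower in males, 374 were measured in females, where 45 were also below 0, beside 32.7% of all female genes, 8 were at least 2-fold lower and 50 at least 2-fold higher. Of the 53 higher genes, 42 were measured in females and 29 were above 0, beside 67.3% of all female genes. No test of the difference between the sexes is possible with 1 library each.

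**Figure D5:**
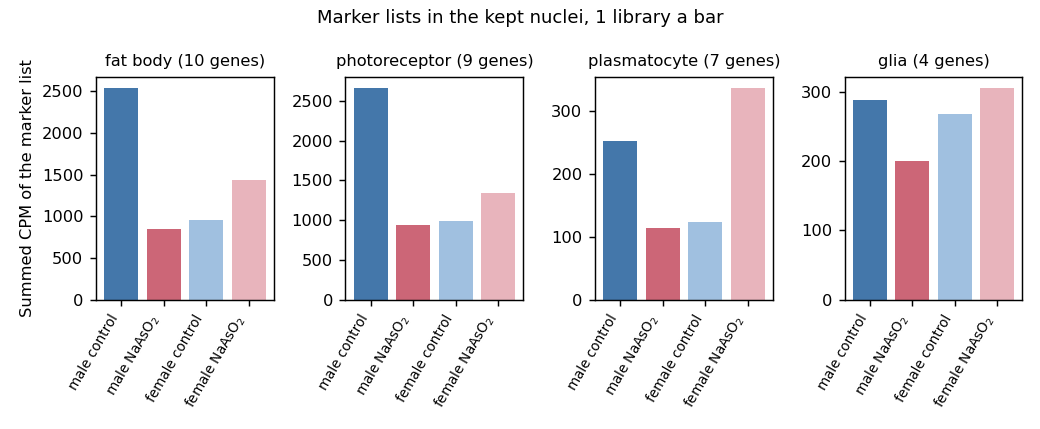
Summed CPM of the marker lists of fat body, photoreceptor, plasmatocyte and glia in the kept nuclei of the 4 libraries, with 1 bar a library. For the first 3 lists the male control library stood above the male NaAsO2 library, and the female control library below the female NaAsO2 library.

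The summed lists of fat body, blood cells and photoreceptors were higher in the male control and the female NaAsO2 library than in the other 2 libraries, but single genes differed from this. The plasmatocyte list stood at 252 CPM in the male control, 114 in the male NaAsO2, 123 in the female control and 337 in the female NaAsO2 library. For *Arr2* the order was 661, 75.8, 106 and 233 CPM, and for *CG2233*, a fat body marker, 296, 86.1, 31.2 and 85.9 CPM. *TotA*, at 1092 and 57.9 CPM in males, was at 5.47 and 5.0 CPM in females. Genes outside these tissues differed between the sexes in other ways. *Pdf* was lower in both, at 522 and 179 CPM in females, *InR* was higher in both, at 428 and 570 CPM in females, and *Cyp4ac3* was higher in both, at 5.89 and 13.1 CPM in females. *MsrA* was at 32.0 and 35.4 CPM and *Obp44a* at 1046 and 920 CPM in females. *Hsp83* was at 367 and 257 CPM in females, a log2 ratio of -0.51 beside -2.18 in males.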

How the data were processed

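The authors aligned the reads with the Cell Ranger count pipeline to release 6 of the *D. melanogaster* genome (methods: version 3.1; matrix header: 7.0.1) and deposited UMI counts per gene and nucleus, not normalized. UMI sums and ratios were computed in pandas 2.3.3 and NumPy 2.4.6 under Python 3.11.15, with intervals from SciPy 1.17.1. Symbols, lengths and coordinates (counted from 1) came from RefSeq release 6, by which 17704 of 17772 identifiers were matched. The kept nuclei held 24926977 (control) and 34292066 (NaAsO2) UMIs, and the total counts set the precision of the intervals. PCR duplicates were collapsed by UMI. Likely doublets stayed in, apart from 1 alternative. Clusters came from Louvain clustering (python-igraph 0.11.9, scikit-learn 1.9.0; resolution 1, 20 neighbours, 10 components) of Pearson residuals. Figures were drawn with matplotlib 3.10.9. The computation was tested on simulated counts with known fold changes.

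The members and the 38 gene lists were chosen with earlier results of these data known. Genes named in the text were the 10 highest and 10 lowest log2 ratios, the 5 largest gains and losses of CPM, the 5 highest and 5 lowest log2 ratios in *elav* nuclei, *repo* nuclei and nuclei with neither, and from each list up to 4 genes at least 2-fold apart or, where none was, the 2 with most UMIs. The definition of mitochondrial genome transcripts was corrected after the files were seen, and 10 listed symbols were not matched. The alternatives were every deposited nucleus, the same number of deepest nuclei, the same number of nuclei in 20 bins of UMIs, thinning, centring, equal weight per nucleus, totals without abundant genes, minimums of 50 and 1000 UMIs per gene, no clusters of 1 library, no likely doublets and a second UMI of *elav* or *repo*. Added after seeing the data were leaving out the top nucleus of a gene, shares of nuclei and a 1.5-fold threshold.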

Additional observations from a re-analysis of the deposited data

Results flagged for a closer look

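Among the genes named by the rule, 6 were at least 2-fold lower in males and at least 2-fold higher in females. The difference between the sexes was not tested, since each sex has 1 library a side. In males the log2 ratio was -3.12 for *Arr2*, -1.78 for *CG2233*, -1.92 for *Npc2g*, -1.94 for *Obp99c*, -1.07 for *lncRNA:CR34335* and -1.46 for *nAChRbeta3*, and in females it was 1.13, 1.46, 2.89, 1.04, 1.55 and 2.08. *CG2233* and *Obp99c* are on the fat body marker list and *Arr2* is on the photoreceptor list. Both lists, whose sums include these genes, moved the same way. *nAChRbeta3* stood at 11 and 4.0 CPM in males and 2.89 and 12.2 CPM in females.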

How the results depend on the processing

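No paired analysis was possible because each group is 1 library. Of 1364 values of the 125 named genes under the alternatives, 803 stayed within counting error, and 17 values of 10 genes changed sign. Of these, 11 values belonged to 6 genes less than 2-fold apart, among them *MtnA* and *CG12239*. Of 93 named genes at least 2-fold apart, 89 kept their sign under every alternative run. *TotM* turned to 0.046 with every nucleus given the same weight, 0.22 without likely doublets and 0.55 as a ratio of shares of nuclei, in which *CG2233* was at 0.60, *Ilp2* at 0.63 and *Obp99c* at 0.0091. The cause was not tested. Thinning left 26 higher genes in *elav* nuclei and 7 higher and 18 lower in *repo* nuclei. Centring on the median gene gave 92 higher and 245 lower genes over all nuclei, and 82 and 198 in *elav* nuclei. A minimum of 50 UMIs gave 132 higher genes, 127 in *elav* nuclei, and 85 higher and 114 lower in *repo* nuclei. With a minimum of 1000 UMIs, which tests fewer genes, there were 17 higher and 191 lower genes over all nuclei, 14 and 156 in *elav* nuclei, and 1 and 5 in *repo* nuclei. Without clusters of 1 library 824 genes were lower, 723 in *elav* nuclei and 39 in *repo* nuclei, of which 70 were left in the NaAsO2 library. Asking for at least 2 UMIs of *elav* or *repo* left 1 higher and 2 lower genes in *repo* nuclei. A 1.5-fold threshold, chosen after seeing the data, gave 202 higher and 1485 lower genes. Shares of nuclei without thinning were 76.2% and 83.1% for *elav* and 4.53% and 5.65% for *repo*. The counts in *repo* nuclei rest on 94 and 104 nuclei. With 1 library a side no alternative shows how flies or libraries vary.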
